A study of Bos grunniens and Bos taurus with 11 samples.

Results

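The small RNA tables from lung of yak and cattle list, beside predicted miRNAs, names taken over from plant miRNAs, and the 92 described here belong to the conserved plant miRNA families. They were chosen by name alone from the 1377 names listed in each table. A name was taken when its number was that of 1 of 25 widely conserved plant families (from miR156 to miR482), and when the pair of positions in its suffix was absent or rose from first to second. The sources used here do not define that suffix. By this rule, 35 names had no positions and 57 had rising ones. A further 16 names of the same families had falling positions and were left out. At least 1 read was recovered for 90 of the 92 names, and 21 of the 25 families had a name with reads. No name stood in the tables for miR157, miR165, miR172 or miR399.

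The libraries came from adult males in 4 groups. CON held 2 Zaosheng cattle from an altitude of 1500 m, and T1, T2 and T3 held 3 yaks each from 3400 m, 4200 m and 5000 m. No group was treated, and no animals were described as pooled. The 3 T2 yaks came from 3 different counties, whereas the animals of every other group shared 1 county. Libraries are named below by group and replicate number, so that CON 1 is replicate 1 of CON. Species and altitude change together between yak and cattle and cannot be told apart in this design. The labels give lung as the tissue, while their extraction text speaks of retinas. Lung identity could not be checked against lung miRNAs, since 0 of the names carried a cattle prefix.

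In plants, these families are short RNAs cut by DICER-LIKE enzymes from hairpin transcripts and loaded into ARGONAUTE proteins, where they guide the cleavage of nearly complementary messenger RNAs. Most conserved families target transcription factors of development: miR166 the class III HD-ZIP factors, miR396 the growth-regulating factors, miR159 the GAMYB factors, miR156 the SPL factors. Others act on copper proteins (miR397, miR398, miR408), on the small RNA machinery itself (miR162, miR168, miR403) or on resistance genes of the NBS-LRR class (miR482). The number in such a name is a label and by itself shows no kinship with an animal miRNA. The 3-letter prefix of a name is the plant whose reference entry was matched, such as ata for the goat grass Aegilops tauschii, sly for tomato, stu for potato, nta for tobacco and atr for Amborella. It does not identify the plant a read came from. The tables hold names and values without sequences, and near-identical entries of 1 family can split the same reads, so family sums are firmer than single names.

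Reads of the 92 names, called member reads here, made up 0.108% of all reads, 29419 in total. In RPM, the reads scaled to the same total in every library, the member level was between 1267 and 2074 in 7 of the 9 yak libraries and 1109 in CON 2. The other 3 libraries were lower. T2 1 had 374.5 RPM, CON 1 had 4.53 RPM and T2 2 had 4.40 RPM. These last 2 libraries stood apart from the rest: they held 11 and 7 member reads, against 2018 to 4391 in the other 9, and reads for 5 member names each, against 46 to 68. The main results that use them are therefore also given without them.

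By group, the member level was 557 ± 781 RPM in CON (SD, n = 2), 1580 ± 271 RPM in T1 (n = 3), 707 ± 916 RPM in T2 (n = 3) and 1655 ± 404 RPM in T3 (n = 3). T1 and T3 overlapped, and the SD of CON and of T2 exceeded the mean. Without CON 1 and T2 2, T2 stood at 1059 ± 967 RPM (n = 2) and CON was CON 2 alone. No test was run on this sum. In lung homogenate, fewer cells that hold an RNA and less of it per cell cannot be told apart. Whether lung cells hold the RNAs behind these names at all was not tested. The tables summed to 2428001 reads in CON 1 and 1589131 in T2 2, within the range of 1536041 to 5388032 over all 11. What sets the low libraries apart was not tested.

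**Figure D1:**
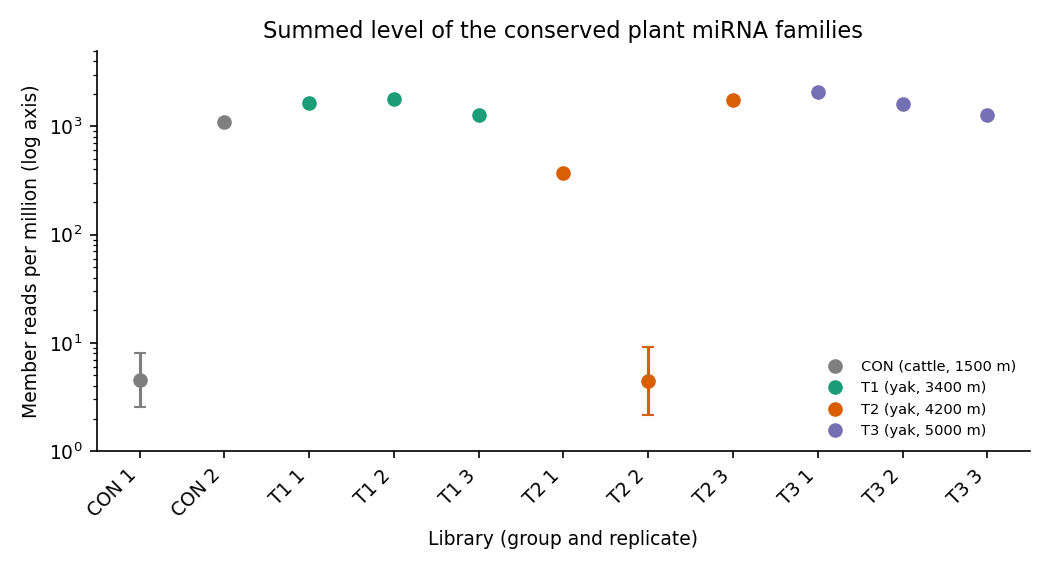
Summed RPM of the 92 member names in each of the 11 libraries, on a log axis, coloured by group; bars are 95% Wilson intervals, which cover counting error only and are smaller than the points in 9 libraries. CON 1 and T2 2 sit at 4.53 and 4.40 RPM, T2 1 at 374.5 RPM, and the other 8 libraries between 1109 and 2074 RPM.

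The low level of T2 1 was shared evenly by the families. For the 8 families with at least 10 reads in each of the 9 member-rich libraries, its log2 ratio to the family's mean over those libraries had a median of -1.96, and the families lay between -2.23 and -1.67. The same ratio had a median of -0.36 in CON 2 and of 0.48 in T3 1, the highest of the 9. In CON 2, T1 2, T2 1, T2 3 and T3 3, all 8 families lay on the same side of their means. In the others they lay on both sides. The range was -0.26 to 0.86 in T1 1, -0.60 to 0.05 in T1 3, -0.20 to 0.63 in T3 1 and -0.28 to 0.29 in T3 2. The SD over the 8 families ran from 0.10 in T2 3 to 0.34 in T1 1 on the log2 scale.

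Family composition was nearly the same in every member-rich library. The 4 leading families, miR166, miR482, miR396 and miR159, held 93.7% of all member reads. Their order was miR166, miR482, miR396, miR159 in 8 of the 9 libraries, and miR396 preceded miR482 in the other one, T3 2. Families of transcription factor targets together took 69.0 ± 1.04% of member reads (SD, n = 9 libraries), resistance gene targets 26.4 ± 1.05%, copper protein and laccase targets 3.26 ± 0.341%, and small RNA machinery targets 1.13 ± 0.152%. Families with auxin receptor, F-box and trans-acting RNA targets took 0.133 ± 0.0451%.

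**Figure D2:**
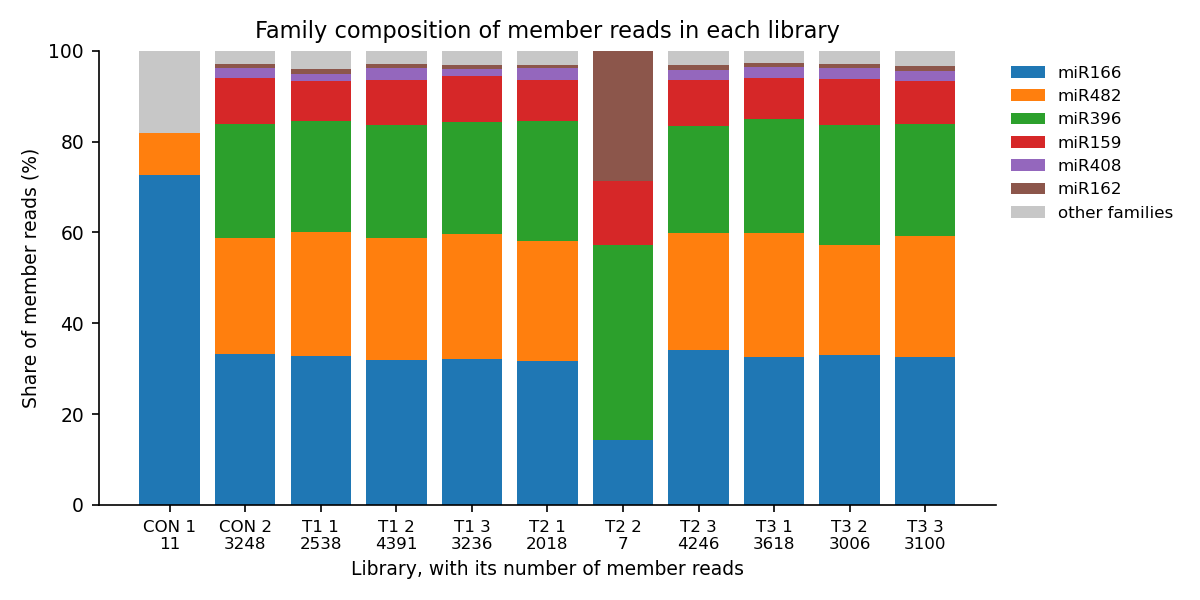
Share of member reads, in percent, taken by the 6 most abundant families and by all others in each library, with the number of member reads under each bar. The bars of the 9 libraries with 2018 or more member reads are nearly alike, and those of CON 1 (11 reads) and T2 2 (7 reads) differ from them and from each other.

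Among the families with transcription factor targets, miR166, whose targets pattern leaves and vascular tissue, was the most abundant. It stood at 3.29 and 367.8 RPM in CON 1 and CON 2, at 541.7, 577.7 and 411.4 RPM in T1, at 118.4, 0.629 and 595.9 RPM in T2, and at 676.4, 535.8 and 413.6 RPM in T3. T1 and T3 overlapped, and both CON values lay within the range of T2. As a share of member reads, miR166 took 33.2% in CON 2, 32.3 ± 0.435% in T1 (n = 3), 32.9 ± 1.83% in T2 without T2 2 (n = 2) and 32.7 ± 0.195% in T3 (n = 3).

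The growth-regulating factor family, miR396, had 0 reads in CON 1 and 277.7 RPM in CON 2. Its level was 402.3, 450.5 and 314.1 RPM in T1, 98.4, 1.89 and 409.2 RPM in T2 and 519.4, 428.8 and 312.6 RPM in T3. Every T1 and T3 library was thus above both cattle libraries, while 2 of 3 T2 libraries were below CON 2. Its share was 25.0% in CON 2, 24.6 ± 0.288% in T1, 24.9 ± 1.97% in T2 without T2 2 and 25.4 ± 0.897% in T3.

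The third member of this group by level, miR159, had 0 reads in CON 1 and 113.1 RPM in CON 2. It reached 145.8, 177.1 and 129.8 RPM in T1, 33.8, 0.629 and 178.5 RPM in T2, and 186.3, 164.9 and 118.9 RPM in T3. The yak libraries other than T2 1 and T2 2 all lay above CON 2. Its share was 10.2% in CON 2 and 9.57 ± 0.585% over the 8 member-rich yak libraries.

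The remaining transcription factor families were sparse. Over all libraries miR156 had 173 reads, miR171, which targets GRAS factors, 115, miR167, which targets auxin response factors, 97, and miR169, which targets NF-YA subunits, 62. The TCP regulator miR319 had 35 reads, miR160, another regulator of auxin response factors, 23, and miR164, which targets NAC factors, 7. None of these had a read in CON 1 or T2 2, and the 3 reads that a count of 0 allows are worth 1.24 RPM at the depth of CON 1 and 1.89 RPM at that of T2 2.

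The resistance gene family miR482 was second in level. Its RPM was 0.412 and 283.8 in CON, 451.2, 485.9 and 353.3 in T1, 99.5, 0 and 448.6 in T2, and 566.9, 395.2 and 337.6 in T3. It held 25.6% of member reads in CON 2 and 26.5 ± 1.07% in the 8 member-rich yak libraries. CON 2 lay within the yak range of 24.3 to 27.6%.

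Copper-related families followed. The level of miR408, which targets laccases and plantacyanin, was 0 and 25.3 RPM in CON, 26.7, 49.8 and 20.97 RPM in T1, 10.02, 0 and 37.3 RPM in T2, and 49.3, 38.9 and 28.6 RPM in T3. Its share was 2.24 ± 0.397% over the 9 libraries. The copper superoxide dismutase regulator miR398 had 241 reads in total and the laccase regulator miR397 had 53.

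Of the families that act on the small RNA machinery, miR162, which targets DICER-LIKE, had 264 reads, miR168, which targets ARGONAUTE, 62 reads, and miR403, also directed at ARGONAUTE, 11 reads in 6 libraries. All of the miR162 reads of the member-rich libraries fell on bra-miR162-3p_R1-20L21, while both miR162 reads of T2 2 fell on another name, bna-miR162a_R6-20L21. The rest were rare: miR394, which targets an F-box protein, had 30 reads, miR390, which starts trans-acting RNA production, 7, the auxin receptor regulator miR393 had 3 reads in 2 libraries, and the sulfate assimilation regulator miR395 had 2 reads in 1 library.

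**Figure D3:**
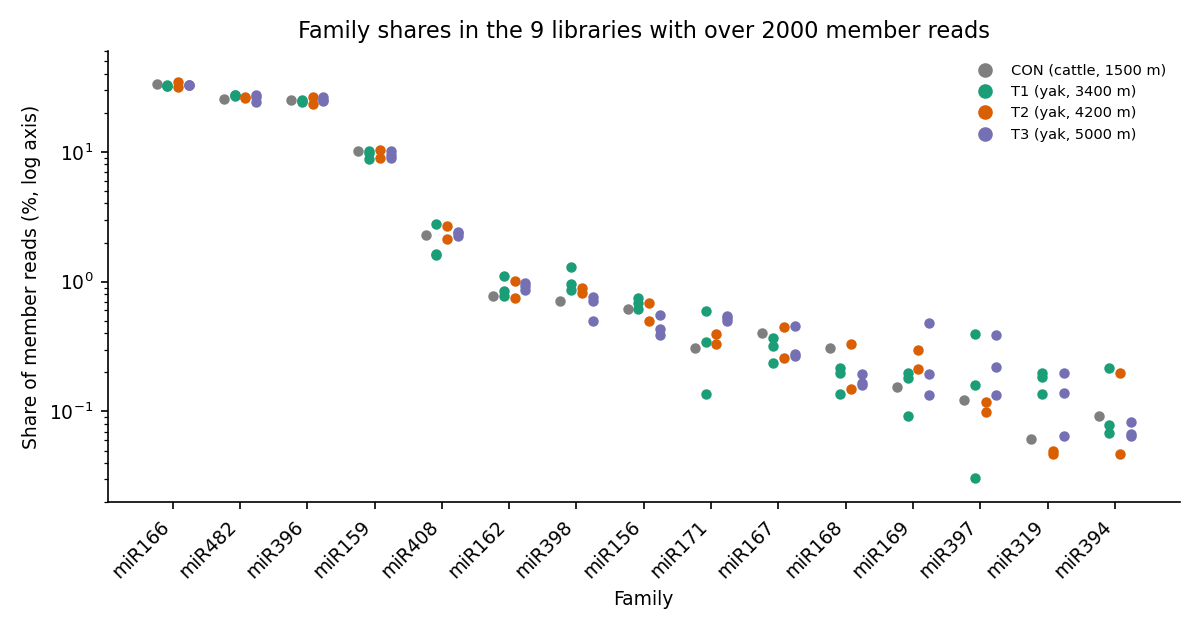
Share of member reads, in percent on a log axis, of the 15 families with a mean of at least 1 RPM, with 1 point per library for the 9 libraries with 2018 or more member reads, coloured by group. The grey CON 2 point lies within the range of the 8 yak points for all 15 families, and the points spread further as families become rarer.

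Family shares were compared between yak and cattle for the 15 families with a mean of at least 1 RPM, by an exact two-sided permutation test over libraries (55 assignments of 9 against 2, smallest possible p 0.0182), unadjusted. At 0.05, 1 family passed. The miR166 share was 30.6% in yak (n = 9) and 52.9% in cattle (n = 2), a difference of -22.4 percentage points (exact permutation p = 0.0364). That difference rested on the sparse libraries. In CON 1, 8 of 11 reads were miR166 (72.7%, 95% Wilson interval 43.4 to 90.3%), and in T2 2, 1 of 7 was (14.3%, interval 2.57 to 51.3%). Without CON 1 and T2 2 the difference was -0.54 points (exact permutation p = 0.556, where 8 against 1 allows no less than 0.111). Leaving out T2 2 alone while CON 1 stayed gave 5 families at p = 0.0444 by the exact permutation test (miR162, miR166, miR171, miR398 and miR482).

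For all 15 families, the share in CON 2 lay inside the range of the 8 member-rich yak libraries. The differences of the yak mean from CON 2 were 0.96 points for miR482, -0.08 points for miR396, -0.62 points for miR159 and -0.05 points for miR408. With 1 cattle library left, the design cannot reach 0.05, and these values describe the libraries at hand. In the sparse libraries themselves, miR396 had 0 of 11 reads in CON 1, with a Wilson limit of 25.9%. That limit fell inside its range of 23.5 to 26.4% in the member-rich libraries, so this 0 decides little. For miR482, 0 of 7 in T2 2 had a limit of 35.4%, above its range of 24.3 to 27.6%. Other shares lay higher: miR394 at 18.2% in CON 1 (interval 5.14 to 47.7%, at most 0.216% in member-rich libraries) and miR162 at 28.6% in T2 2 (interval 8.22 to 64.1%, at most 1.10%). Each rested on 2 reads.

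Shares were then compared across the yak altitudes (exact permutation test of the between-group sum of squares, 1680 assignments, unadjusted). Among the 15 families, 1 passed at 0.05: miR319, with 0.173 ± 0.0320% of member reads in T1, 0.0322 ± 0.0279% in T2 and 0.134 ± 0.0676% in T3 (exact permutation p = 0.0321, n = 3 yaks per altitude). This family had 1 to 6 reads in each of the 8 member-rich yak libraries, and without CON 1 and T2 2 its p was 0.0893 in the same exact permutation test. It also missed 0.05 without T1 1, T1 3, T2 1, T2 3 or T3 1, with exact permutation p of 0.0643 to 0.0964. Without T2 3, where T2 1 and T2 2 remain for that altitude, miR166 (p = 0.0107), miR396 (p = 0.0429) and miR482 (p = 0.0464) passed in its place in the exact permutation test. Without CON 1 and T2 2, the family that passed was miR398 (exact permutation p = 0.0429). Its share was 1.04 ± 0.229% in T1 (n = 3), 0.858 ± 0.0478% in T2 (n = 2) and 0.657 ± 0.141% in T3 (n = 3), and with all 9 yaks its p was 0.264 in the exact permutation test. The 4 most abundant families had p of 0.261 to 0.761 over the 9 yaks and 0.407 to 0.968 without T2 2 (exact permutation tests).

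Levels of the same 15 families were compared with limma on log2(RPM + 1), after summing member names into families within the whole table (289 rows with a mean of at least 1 RPM). Calls needed a 2-fold change and p under 0.05 after Benjamini-Hochberg adjustment over all rows. Between yak and cattle 0 families were called, where 1.04% of all rows were called. At an unadjusted p under 0.05, limma counted 0 families, where 6.23% of all rows passed that level. On the recovered reads, edgeR and DESeq2 also called 0 and counted 0. All 15 fitted differences were above 0, with a median of 1.31 on the log2(RPM + 1) scale, beside -0.25 over all rows. The value for miR396 was 3.57 ± 1.70 (log2 difference ± SE, limma adjusted p = 0.678), for miR482 3.21 ± 1.83, for miR159 2.90 ± 1.55 and for miR166 2.57 ± 1.69. These values turned on 1 cattle library. Without CON 1 the same differences were -0.49, -0.61, -0.52 and -0.64, and without CON 2 they were 7.63, 7.04, 6.32 and 5.78, where miR396 was called (limma adjusted p = 0.0410).

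Each altitude was also set against CON. With limma 0 families were called for T1, T2 and T3 alike, where 0.346% of all rows were called in each of the 3 comparisons. At an unadjusted p under 0.05, the counts were 1 family for T1 (miR396), 0 for T2 and 2 for T3 (miR396 and miR171). Of all rows, 7.27%, 2.77% and 16.3% passed that level with limma in these 3 comparisons. With edgeR and DESeq2, 0 families were called and 0 counted. The median log2 difference was 2.06 in T1, 0.29 in T2 and 1.95 in T3. Without CON 1 these medians were 0.46, -1.13 and 0.57, without CON 2 they were 3.55, 1.73 and 3.25, and without CON 1 and T2 2 they were 0.43, -0.28 and 0.55 over 16 families. The miR396 difference was 4.53 in T1 and 4.63 in T3 with all libraries, and 0.47 and 0.57 without CON 1. These 3 comparisons share the CON libraries, so their likeness is not a separate result. Without CON 2, miR396 was called in T1 (log2 difference 8.59) and in T3 (8.69), and CON 1, the cattle library then left, had 0 miR396 reads.

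Between yak altitudes, 0 families were called in all 3 comparisons, where 0% of all rows were called. In T2 against T1 all 15 families had a difference below 0, with a median of -1.51 on the log2(RPM + 1) scale (all rows 0.40). In T3 against T2 all 15 were above 0, with a median of 1.55 (all rows -0.64). T3 against T1 had 10 families above 0 and 5 below, with a median of 0.07 (all rows -0.22). At an unadjusted p under 0.05, limma counted 1 family in T2 against T1 (miR319, -1.51 ± 0.63, adjusted p = 0.614) and 0 in the others, edgeR counted 0 in all 3, and DESeq2 counted 1 in T3 against T2. The size of the T2 differences turned on single T2 libraries. Without T2 2 the median was -0.84 for T2 against T1 and 0.92 for T3 against T2, and without T2 3 it was -2.36 and 2.44. Without CON 1 and T2 2 it was -0.79 and 0.92 over 16 families, with 0 called.

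**Figure D4:**
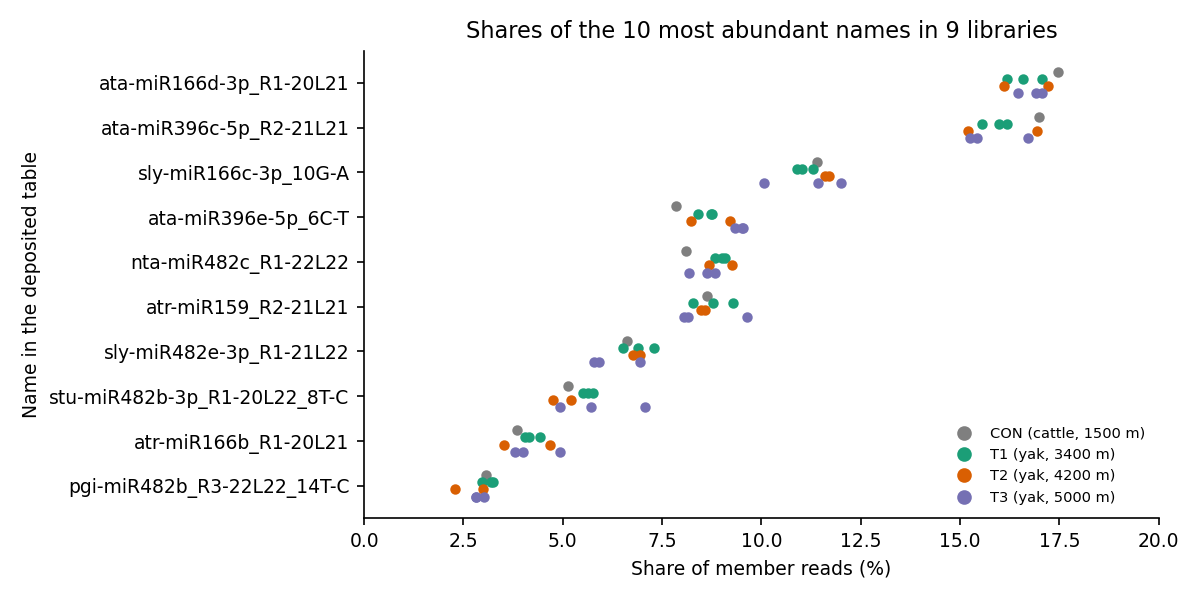
Share of member reads, in percent, of the 10 most abundant member names, with 1 point per library for the 9 member-rich libraries, coloured by group. Neighbouring names overlap, and each name keeps to a narrow range, from 17.5% for ata-miR166d-3p_R1-20L21 in CON 2 down to 2.28% for pgi-miR482b_R3-22L22_14T-C in T2 1.

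Within the families, a few names carried most reads, and the same 10 names held 89.5% of the total. The most abundant was ata-miR166d-3p_R1-20L21, with 51.4 ± 0.939% of the miR166 reads (SD, n = 9 libraries). It was the only name with reads in all 11 libraries and led in 7 of the 9 member-rich ones. Its level was 1.24 and 193.7 RPM in CON, 281.9, 292.3 and 212.4 RPM in T1, 60.3, 0.629 and 300.02 RPM in T2 and 350.8, 267.6 and 216.2 RPM in T3. T1 and T3 overlapped and lay above both cattle libraries. In the other 2 member-rich libraries the lead went to ata-miR396c-5p_R2-21L21, which took 64.2 ± 1.89% of miR396.

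The second miR166 name, sly-miR166c-3p_10G-A, took 34.5 ± 1.74% of its family and atr-miR166b_R1-20L21 12.7 ± 1.30%. For miR396 the second name was ata-miR396e-5p_6C-T with 35.4 ± 1.99%. In these names and others a trailing token such as 10G-A names a position and 2 letters; it is treated here as a letter exchange, which the sources do not define. The names with such a token held 30.7 ± 1.22% of member reads over the 9 libraries.

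The miR482 reads were spread over more names: nta-miR482c_R1-22L22 took 33.0 ± 1.07%, sly-miR482e-3p_R1-21L22 25.1 ± 1.68%, stu-miR482b-3p_R1-20L22_8T-C 20.9 ± 2.07%, pgi-miR482b_R3-22L22_14T-C 11.1 ± 1.19%, aqc-miR482c_R3-22L22_14T-A 5.42 ± 0.669% and sly-miR482d-3p_R1-20L22 2.10 ± 0.381%. In contrast, atr-miR159_R2-21L21 alone held 89.9 ± 4.90% of miR159. The miR408 reads were led by stu-miR408b-3p_R1-21L21 with 45.6 ± 6.16%, and the miR398 reads by ata-miR398g-3p_R1-18L21 with 71.4 ± 11.8%.

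Of the sparser families, the leading names were atr-miR156c_R1-20L21 (62.2% of miR156 on average), sly-miR171e (44.7% of miR171), ata-miR167e-5p (64.7% of miR167), bra-miR168a-5p_R1-20L21 (71.0% of miR168), tcc-miR169g_R1-20L21 (76.4% of miR169), stu-miR397-5p_R2-21L21 (77.6% of miR397) and bra-miR319-3p_R1-20L21 (75.9% of miR319). The SD over the 9 libraries was between 10.6 and 25.2 percentage points for these names, each of which had few reads per library. For miR394 all reads of the 9 libraries were ata-miR394-5p, while the 2 miR394 reads of CON 1 were aly-miR394b-3p_R1-15L20.

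Across all member names, those with positions and no exchange held 67.5 ± 1.07% of member reads over the 9 libraries, and those with neither 1.84 ± 0.570%. Names marked 3p held 44.6 ± 1.05%, names marked 5p 26.3 ± 0.910% and names without an arm 29.0 ± 0.759%. Names with a grass prefix held 43.5 ± 0.655%, nearly all of it under ata, with 43.3 ± 0.701%, and sly followed with 19.2 ± 0.544%. These shares, too, differed little between the cattle library CON 2 and the yak libraries. For the grass prefixes the lowest and highest values over the 9 were 42.6 and 44.6%, the highest being that of CON 2. Among single names, CON 2 was highest for ata-miR166d-3p_R1-20L21 (17.5%), ata-miR396c-5p_R2-21L21 (17.0%) and the minor name aly-miR159c-3p_R1-20L21. It was lowest for ata-miR396e-5p_6C-T (7.85%), nta-miR482c_R1-22L22 (8.10%) and the less abundant stu-miR408b-3p_R1-21L21. For the rest of the 21 names measured, CON 2 lay inside the yak range.

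Of the 92 names, 36 had a mean of at least 1 RPM and were tested singly among 310 rows. With limma 0 member names were called between yak and cattle, where 0.968% of the rows were called. Each altitude against CON also gave 0, where 0.323% were called. Between yak altitudes 0 were called, with 0% of rows. At an unadjusted p under 0.05, 0 names were counted for yak against cattle, where 5.16% of all rows passed. Against CON the counts were 2 for T1 (6.45% of rows), 0 for T2 (2.58%) and 2 for T3 (14.5%). They were 1 for T2 against T1 (5.48% of rows), 0 for T3 against T1 (2.90%) and 1 for T3 against T2 (13.9%). With edgeR 0 names were called and counted in all 7 comparisons. DESeq2 called 0 and counted 1 in T2 against T1 and in T3 against T2, and its share over all rows at that level was not computed. Without CON 1 and T2 2, 40 names were tested with limma, and 0 were called and 0 counted at an unadjusted p under 0.05 in all 7 comparisons.

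Of the member names, 4 also belong to the network miRNAs of the study, chosen on these same libraries, so their values are no independent evidence. Besides ata-miR166d-3p_R1-20L21 these were sly-miR482e-3p_R1-21L22, stu-miR408b-5p_R4-21L21 and pab-miR396a. The tomato name sly-miR482e-3p_R1-21L22 had 0.412 and 73.4 RPM in CON, 113.9, 117.8 and 93.4 RPM in T1, 26.0, 0 and 117.8 RPM in T2 and 119.8, 96.2 and 87.9 RPM in T3. Much lower, stu-miR408b-5p_R4-21L21 had 0 and 3.07 RPM in CON, 1.30, 7.41 and 1.19 RPM in T1, 0.928, 0 and 2.46 RPM in T2, and 4.59, 5.41 and 3.27 RPM in T3. Its highest value was that of T1 2. Its T3 values were above both cattle values and all T2 values, with 8 to 10 reads behind each. The lowest of them, 3.27 RPM, was close to the 3.07 RPM of CON 2, so this order is within counting error. The spruce name pab-miR396a had at most 2.70 RPM (in T3 2) and was below the 1 RPM mean needed for testing.

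The likeness of the 9 member-rich libraries was set against counting error, as a description. The chi-square statistic of reads by library, divided by its degrees of freedom, equals 1 on average when libraries differ by counting error alone. It was 1.31 over 10 families and 1.58 over 21 member names with at least 5 expected reads. For the 141 other plant-prefixed names with rising or no positions it was 1.27 (8 rows), and for predicted names 5414 (196 rows). By pairs of libraries, the family value had a median of 1.44 over 7 pairs within a group and 1.46 over 29 pairs between groups, and 0.879 over the 8 pairs of CON 2 with a yak library. Pairs share libraries and were not tested.

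At matched abundance, a mean of 50 to 1000 reads, the share of a member family within the set varied with a median coefficient of variation of 5.03% (4 families), where counting error alone gives 4.56%. For member names it was 6.43% against 5.93% (10 names), and for predicted names 71.5% against 7.70% (72 names). Single values were wider, up to 17.8% for the family miR408. For the other plant-prefixed names the median was 9.73% against 10.3% (4 names). Thus, by the median at this abundance, member names varied near the counting limit across the 1 member-rich cattle library and the 8 yak libraries. The other plant-prefixed names did so too, while predicted names in the same libraries did not.

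**Figure D5:**
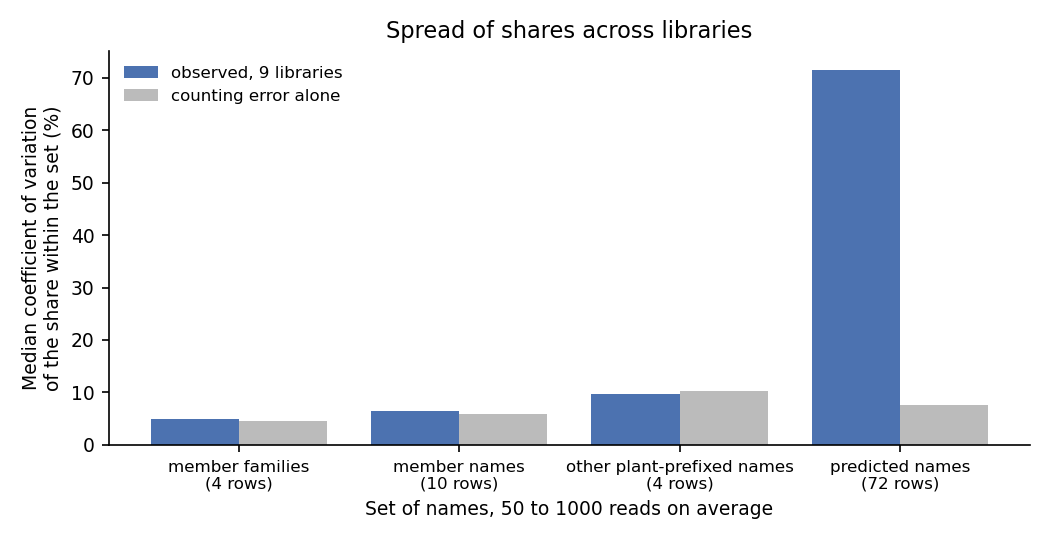
Median coefficient of variation of each row's share within its set over the 9 member-rich libraries (blue) and the value counting error alone would give (grey), in percent, for rows with a mean of 50 to 1000 reads. Member families, member names and other plant-prefixed names lie near their grey bars, whereas predicted names reach 71.5% against 7.70%.

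Of the 21 member names, 3 exceeded a value of 2 on a per-name version of that statistic. The largest, 9.47, belonged to aly-miR159c-3p_R1-20L21, a minor miR159 name. Its reads were 29 in CON 2, 10, 4 and 28 in T1, 1 and 30 in T2 1 and T2 3, and 10, 6 and 2 in T3, so replicates of 1 group differed as widely as groups did. The others were stu-miR482b-3p_R1-20L22_8T-C with 3.17, highest in T3 1 at 7.08% of member reads, and ata-miR398g-3p_R1-18L21 with 2.84, highest in T1 1 at 1.18%. The median over the 21 names was 1.12.

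The 141 other plant-prefixed names with rising or no positions varied with the members in level. Their summed RPM was 10.3 in CON 1, 20.8 in T2 2 and 74.2 in T2 1, and 236.7 to 416.8 in the other 8 libraries. Members made up 83.3 ± 0.556% of all plant-prefixed reads with rising or no positions in the 9 member-rich libraries, 30.6% in CON 1 and 17.5% in T2 2. The 2 sparse libraries thus differed from the rest in the makeup of their few plant-prefixed reads with rising or no positions, as well as in their level. Of the reads under all names that were not predicted, whatever their positions, members made up 1.44% in CON 1 and 0.793% in T2 2. In the other 9 libraries that share ran from 58.2% in T2 1 to 77.9% in T2 3. Most such reads of the 2 sparse libraries thus lay under names outside the members.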

How the data were processed

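Small RNA of lung from 2 cattle and 9 yaks was measured. As the study describes, the authors removed low-quality and adapter-free reads, removed other small RNAs by BLAST against Rfam and named known miRNAs by miRBase. Others were located in the reference genome with Bowtie2 and predicted with MIREAP (versions are not given in the sources used here). The only reference genome the study names is the yak assembly BosGru_v2.0, given under read mapping and transcript assembly. It does not say that reads of known names were aligned to it. The deposited values are RPM (reads of a name scaled so that the 1377 listed names reach the same total in every library), in 1 table per library. Whole reads were recovered from the RPM steps: 100% of 4651 values above 0 came out whole within 0.02 of a read. Recovered depth was 1536041 to 5388032 reads per library. Replicates of a group differed far beyond counting error (lowest chi-square per degree of freedom 58.2 over 10 pairs).

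Member reads were summed by family. Levels were tested with limma 3.58.1 (moderated fit with trend, R 4.3.3) on log2(RPM + 1), with a filter at 1 RPM on the row mean and all 11 libraries, Benjamini-Hochberg adjustment over the whole table, called at adjusted p under 0.05 and at least 2-fold. edgeR 4.0.16 and DESeq2 1.42.0 were run on the recovered reads. Shares were tested by exact permutation over libraries (Python 3.11.15). Alternatives were the pseudocount, filter, scaling, tool, grouping of names, a replicate block and leaving out libraries. The test code was checked on simulated data. Intervals are Wilson 95% and cover counting error only. Replicate numbers did not pair the libraries (correlations of deviations from the group mean -0.82 to 0.61). The lowest was that of CON 2 with T2 2. As CON holds 2 libraries, the deviations of CON 1 are those of CON 2 with the sign changed. The families described are all those with reads, and the names are the 15 most abundant, the leading name of each tested family, any called name and the study's network miRNAs. Members, lists and tests were chosen with earlier results of these data known.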

Additional observations from a re-analysis of the deposited data

Results flagged for a closer look

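Over the 9 yaks, 33 measures were screened for a library whose gap to its nearest neighbour exceeded Dixon's 95% critical share of the range, and 10 were marked, all in T2 2. Chance marks about 1 in 20, and the 33 measures share their libraries. T2 2 had reads for 5 member names, and members made up 17.5% of its plant-prefixed reads with rising or no positions. Its 7 member reads gave shares of 14.3% for miR166, 42.9% for miR396, 28.6% for miR162 and 14.3% for miR159, and of 0% for miR482, miR408, miR156 and miR167. Each of these shares rests on 0 to 3 reads.

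The 16 names of the same families with falling positions lie outside the naming rule and entered none of the comparisons above. Their summed level was 6.18 RPM in CON 1 and 29.7 RPM in CON 2, and it was higher than both in T1 1 (46.2 RPM), T1 2 (47.4 RPM), T2 3 (36.9 RPM), T3 1 (55.6 RPM), T3 2 (42.7 RPM) and T3 3 (31.5 RPM). In T1 3 it was 29.3 RPM, in T2 1 5.20 RPM and in T2 2 0.629 RPM. Of their 734 reads, 635 belonged to mes-miR397_R20-1L20_6A-T.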

How the results depend on the processing

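Counts of called families and names, and of families passing the share tests, were recomputed under every alternative. Of these 364 counts, 346 stayed at the reported count or within 1.5 times it. Most of the 18 that moved were share counts. The counts of calls that stayed were 0 in both settings. Leaving out 1 library at a time gave 0 to 1 called families for yak against cattle, for T1 against CON and for T3 against CON, the 1 being miR396 without CON 2. For shares of yak against cattle the same step gave 0 to 5 families, with 5 without T2 2 and 2 without T1 3 or T2 1, and across yak altitudes 0 to 3, with 3 without T2 3 and 0 without T1 1, T1 3 or T3 1. The share count for yak against cattle was 0 with all plant names as the denominator, 0 without letter exchanges and 0 without CON 1 and T2 2. The share count across altitudes was 0 with merged families, 0 without letter exchanges and 0 under the replicate block. The replicate block called 0 families and 0 names in all 7 comparisons and changed no other call; the numbers do not pair the libraries.

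The miR166 share difference of -22.4 points was -0.31 with all plant names as the denominator and -1.83 with falling positions added. The denominator of all plant names took in those with rising or no positions. In that last setting the counts stayed at 1 while the family changed: miR159 passed for yak against cattle (-20.5 points, exact permutation p = 0.0364) and miR397 across altitudes (exact permutation p = 0.0321).

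Family differences were recomputed for yak against cattle, T2 against T1 and T3 against T2. Of these 1082 values, 12 reversed, all in yak against cattle. With 1 library left out, they ran from -0.19 to 2.78 for miR156, -0.52 to 6.32 for miR159, -0.64 to 5.78 for miR166, -0.29 to 2.15 for miR167, -0.47 to 1.67 for miR168, -0.49 to 7.63 for miR396, -0.33 to 4.39 for miR408 and -0.61 to 7.04 for miR482, the lowest always without CON 1. Without CON 1 and T2 2, miR167 was -0.076 and miR168 -0.29. For miR394 the value was -0.059 with a pseudocount of 0.1 and -0.18 with falling positions added. The cause was not tested. With 1 cattle library left, that library was assumed to vary like the other groups.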

Other observations

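The few plant-family reads of CON 1 fell outside the rule more often than inside it. It had 15 reads of same-family names with falling positions, 13 of them under bdi-miR159b-5p.2_R15-1L23, beside 11 member reads. In the 9 member-rich libraries, reads with falling positions came to 2.41 ± 0.438% of the member reads (SD), between 1.39% in T2 1 and 2.80% in T1 1.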
